A study of Mus musculus with 6 samples.

Results

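Kallikrein-related peptidases are secreted serine proteinases, and 7 of them (Klk5, Klk6, Klk7, Klk8, Klk10, Klk11 and Klk13) are described here with the membrane-anchored serine proteinase matriptase, encoded by St14, and with the proteinase inhibitors encoded by Spink5 and Spint1. These 10 genes, 8 proteinases and 2 inhibitors, were taken by gene symbol from a table of 55481 genes, in which each of these symbols had a single entry. All 10 passed the filter on low values, which kept the 13474 genes that reached 1 TPM in 2 or more libraries. The values come from bulk RNA sequencing of polyA RNA from tumour cells of mice whose skin was treated with a carcinogen, DMBA, and a promoter of tumour growth, TPA, to give squamous cell carcinomas. Itga6hi CD80pos cells, named tumour stem-like by the submitters, carry much integrin alpha 6 and the co-stimulatory ligand CD80, and had 2 libraries. Itga6low CD80neg cells, named differentiated cancer cells, carry little integrin alpha 6 and no CD80, and also had 2 libraries. The labels also give Itga6hi CD80neg cells, which were not analysed here. Itga6 stood at 178 and 339 TPM in Itga6hi CD80pos, against 1.496 and 1.65 TPM in Itga6low CD80neg, and Cd80 at 6.24 and 1.89 TPM in Itga6hi CD80pos, against 0.642 and 0.563 TPM in Itga6low CD80neg. The series text and labels give both populations the same tumour model and no further treatment, and they do not give strain, age, sex or whether a library came from 1 animal or a pool. Whether the replicates came from separate animals is not stated, so the spread behind each p-value is that of these libraries and may be technical.

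In the epidermis, kallikreins are made as inactive precursors by keratinocytes of the upper layers, are released into the space between cells and cut the desmosomal proteins that hold the outermost cells together. KLK5 can activate itself and other kallikreins, and LEKTI, the protein of Spink5, binds and blocks KLK5, KLK7 and related enzymes; loss of LEKTI in people causes Netherton syndrome, in which the skin sheds too readily. Matriptase acts at the cell surface upstream of kallikreins and other zymogens, and HAI-1, the protein of Spint1, is its main membrane-bound inhibitor in epithelia. An excess of matriptase in mouse epidermis, unopposed by HAI-1, is known to promote skin carcinomas.

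On deposited TPM, Klk10 and Klk8, the kallikreins with the highest levels in Itga6hi CD80pos cells, were higher there, as were St14, Spink5 and Spint1. The calls of Klk10, St14 and Spink5 held under all 5 scalings of the libraries compared below. Those of Klk8 and Spint1 were made on deposited TPM alone. With libraries scaled to an equal keratin total, a setting outside those 5, 0 of the 10 genes were called higher. Klk5, Klk6, Klk7, Klk11 and Klk13 did not pass the test. The 2 populations differed in which kallikreins made up the total, and the log2 fold changes of both inhibitors exceeded those of 5 of the 7 kallikreins. Limma, with p-values adjusted by Benjamini-Hochberg and a threshold of 0.05, called 5 of the 10 genes higher and 0 lower (5 and 0 at an unadjusted p under 0.05), and these 5 were 3 of 8 proteinases and 2 of 2 inhibitors. Over all genes tested, 57.0% were called higher and 9.48% lower, so the count of 5 in 10 is near the background. The median log2 fold change was 1.03 over the 8 proteinases and 2.84 over the 2 inhibitors, beside 1.27 over all genes tested.

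The promoters of 3 nearby kallikrein genes and of Spint1 are shown first, because Klk10 and Klk8 were called higher in Itga6hi CD80pos cells while Klk7, the next gene after Klk8, was not called. Klk9, which lies between Klk10 and Klk8, is not shown. The sequences are RefSeq promoter windows on GRCm38.p6, all on the plus strand, from 250 bases before to 50 bases after the start site, and these tables matched windows by symbol for 8 of the 10 genes. Capitals mark matches on either strand, none of which overlap. The motifs searched were the AP-1 site as TGANTCA, the site of Grainyhead-like factors of epidermis as AACCNGTT, the TATA box, a core element near many start sites, as TATAAA, and the GC box, which Sp factors bind, as GGGCGG.
Klk10 (chr7:43780804-43781103): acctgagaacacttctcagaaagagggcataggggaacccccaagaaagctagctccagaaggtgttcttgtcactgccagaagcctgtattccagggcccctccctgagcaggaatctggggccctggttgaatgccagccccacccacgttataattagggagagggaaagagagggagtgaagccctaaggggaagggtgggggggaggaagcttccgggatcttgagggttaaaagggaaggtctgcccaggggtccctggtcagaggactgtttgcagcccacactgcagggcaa
Klk8 (chr7:43797327-43797626): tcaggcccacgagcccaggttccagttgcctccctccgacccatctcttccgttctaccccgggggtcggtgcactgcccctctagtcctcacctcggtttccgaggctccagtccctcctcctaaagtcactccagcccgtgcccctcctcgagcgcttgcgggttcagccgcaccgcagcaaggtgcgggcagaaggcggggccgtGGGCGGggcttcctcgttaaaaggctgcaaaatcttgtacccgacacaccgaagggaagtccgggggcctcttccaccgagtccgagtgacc
Klk7 (chr7:43811044-43811343): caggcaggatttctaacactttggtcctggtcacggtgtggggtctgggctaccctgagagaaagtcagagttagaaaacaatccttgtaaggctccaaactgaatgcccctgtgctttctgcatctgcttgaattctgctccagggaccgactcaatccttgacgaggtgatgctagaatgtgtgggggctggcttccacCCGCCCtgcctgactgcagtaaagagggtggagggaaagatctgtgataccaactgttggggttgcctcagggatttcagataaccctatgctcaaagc
Spint1 (chr2:119237110-119237409): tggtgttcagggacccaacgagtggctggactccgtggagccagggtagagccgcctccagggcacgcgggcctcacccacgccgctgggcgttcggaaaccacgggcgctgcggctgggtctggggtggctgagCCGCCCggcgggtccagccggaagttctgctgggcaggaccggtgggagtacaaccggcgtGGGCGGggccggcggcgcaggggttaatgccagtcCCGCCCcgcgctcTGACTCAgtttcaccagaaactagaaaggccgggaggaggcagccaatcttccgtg
The Klk10 window held none of these letters. The Klk8 window held 1 GC box match 42 bases before the start site, and the Klk7 window held 1 such match 49 bases before it. The Spint1 window held 3 GC box matches and 1 AP-1 match, 6 bases before its start. Among 32851 RefSeq windows of the same length, 35.7% held a GC box match and 7.81% an AP-1 match, while 13.6% held TATAAA and 2.09% the Grainyhead-like letters. A match describes the letters in the window, not a site in use.

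Klk8, neuropsin, a kallikrein of skin and brain, had the highest level of the 10 genes in every library. It stood at 421 and 269.9 TPM in Itga6hi CD80pos libraries, against 19.1 and 101 TPM in Itga6low CD80neg libraries. The populations did not overlap, and Itga6low CD80neg replicate 2 stood far above its replicate 1. The means were 346 ± 107 TPM in Itga6hi CD80pos and 60.3 ± 58.2 TPM in Itga6low CD80neg (SD, n = 2 each), a log2 fold change on the log2(TPM + 1) scale of 2.90 ± 0.84 (SE, limma adjusted p = 0.0286). Under 4 other scalings of the libraries, described below with their effect on all genes, Klk8 was not called (adjusted p up to 0.157). Of the 31-base words in its annotated transcripts, 22.9% also occur in 2310002F09Rik, a noncoding transcript of the opposite strand that runs across Klk8, Klk10, Klk11 and Klk13. That transcript stood at 3.98 and 2.02 TPM in Itga6hi CD80pos and at 0.227 and 0.471 TPM in Itga6low CD80neg, far under Klk8 in each library. The labels do not state whether strand was used in counting. Leaving out 1 library gave Klk8 log2 fold changes between 1.72 and 4.07.

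Klk10, a kallikrein whose proteolytic activity is little understood, stood at 122 and 182 TPM in Itga6hi CD80pos, against 9.61 and 27.3 TPM in Itga6low CD80neg. Both Itga6hi CD80pos libraries lay several-fold above both of the others. The means were 152 ± 42.6 TPM in Itga6hi CD80pos and 18.5 ± 12.5 TPM in Itga6low CD80neg (SD, n = 2 each), with a log2 fold change of 3.11 ± 0.57 (SE, limma adjusted p = 0.00902). Klk10 was the single kallikrein here whose call held under all 5 scalings (adjusted p up to 0.0480), in company with St14 and Spink5. Over all genes tested, 6.58% were called higher under every scaling that held them.

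Klk7, the chymotrypsin-like enzyme of corneodesmosome cleavage, stood at 18.4 and 27.7 TPM in Itga6hi CD80pos, against 9.66 and 39.5 TPM in Itga6low CD80neg. The 2 Itga6low CD80neg values enclosed both of the others. Its log2 fold change was 0.18 ± 0.68 (SE, limma adjusted p = 0.823). Klk6, a trypsin-like kallikrein found in skin and in the nervous system, had the same arrangement, at 13.4 and 20.2 TPM in Itga6hi CD80pos and 8.06 and 34.7 TPM in Itga6low CD80neg. Its log2 fold change was -0.04 ± 0.69 (SE, limma adjusted p = 0.960). For both genes the spread between the Itga6low CD80neg replicates was larger than the difference between the populations.

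Klk13, a trypsin-like kallikrein of stratified epithelia, stood at 43.5 and 69.6 TPM in Itga6hi CD80pos, against 12.6 and 54.6 TPM in Itga6low CD80neg. Klk11, a further trypsin-like member, stood at 16.4 and 17.7 TPM in Itga6hi CD80pos, against 3.96 and 14.5 TPM in Itga6low CD80neg. The Klk13 values overlapped between populations and the Klk11 values did not, but the nearest Klk11 values, 16.4 TPM in Itga6hi CD80pos and 14.5 TPM in Itga6low CD80neg, lay close together. Their log2 fold changes were 1.03 ± 0.73 (SE, limma adjusted p = 0.250) and 1.04 ± 0.58 (SE, limma adjusted p = 0.159). Klk5, the trypsin-like enzyme placed at the head of the epidermal kallikrein cascade, was the lowest of the 10 genes in all 4 libraries. It stood at 2.999 and 5.72 TPM in Itga6hi CD80pos, against 2.06 and 3.44 TPM in Itga6low CD80neg, and the populations overlapped. Its log2 fold change was 0.49 ± 0.39 (SE, limma adjusted p = 0.299).

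St14, matriptase, stood at 68.3 and 58.2 TPM in Itga6hi CD80pos, against 4.16 and 7.21 TPM in Itga6low CD80neg. Its replicates lay close together in Itga6hi CD80pos, and the populations were well apart. The means were 63.3 ± 7.10 TPM in Itga6hi CD80pos and 5.68 ± 2.16 TPM in Itga6low CD80neg (SD, n = 2 each), with a log2 fold change of 3.30 ± 0.36 (SE, limma adjusted p = 0.00434), number 298 of the 13474 genes from the top. Of its 31-base words 3.61% occur in other genes. Spink5 stood at 63.8 and 34.0 TPM in Itga6hi CD80pos, against 2.74 and 5.67 TPM in Itga6low CD80neg. Its log2 fold change was 3.25 ± 0.47 (SE, limma adjusted p = 0.00619), and its populations did not overlap. Spint1 stood at 30.5 and 35.8 TPM in Itga6hi CD80pos, against 2.62 and 10.1 TPM in Itga6low CD80neg, again without overlap. Its log2 fold change was 2.42 ± 0.58 (SE, limma adjusted p = 0.0168), and it was called on deposited TPM alone (adjusted p up to 0.187 under the 4 other scalings).

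**Figure D1:**
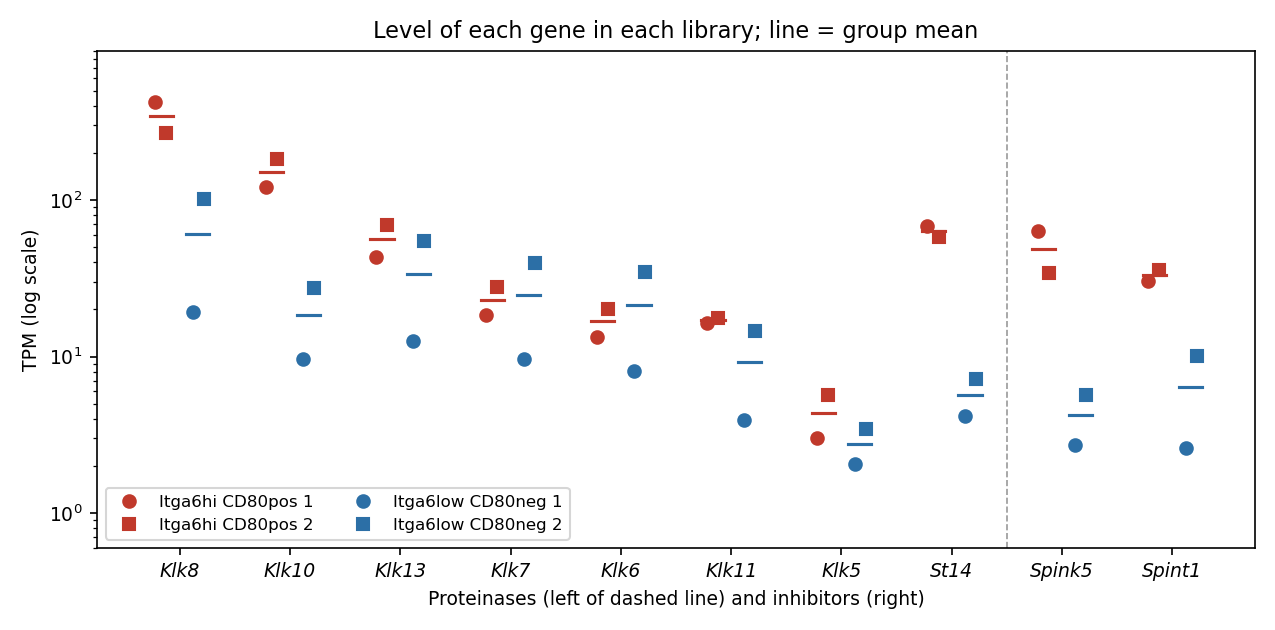
TPM of each gene in each library on a log scale, with Itga6hi CD80pos libraries in red left of Itga6low CD80neg libraries in blue, circles for replicate 1, squares for replicate 2 and a line at each group mean. Klk8, Klk10, St14, Spink5 and Spint1 lie clearly apart between the populations, while Klk6 and Klk7 of Itga6hi CD80pos lie between the 2 Itga6low CD80neg values.

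Of the 10 genes, 6 had both Itga6hi CD80pos libraries above both Itga6low CD80neg libraries, where 73.5% of all genes tested did. With 1 library left out, its population is a lone library assumed to vary like the other population, which then supplies all the spread (1 residual degree of freedom). Without Itga6hi CD80pos replicate 1, and likewise without its replicate 2, limma called 0 of the 10 genes (4 and 3 at an unadjusted p under 0.05), with 0.00% and 2.62% of all genes called higher. Without Itga6low CD80neg replicate 2, where the spread is that of the Itga6hi CD80pos pair, 7 of the 10 were called higher, with Klk11 (adjusted p = 0.0114) and Klk13 (adjusted p = 0.0299) added to the 5, beside 61.1% of all genes. Without its replicate 1 the count was 5, beside 55.2%. Among the other settings, pseudocounts of 0.1 and 5 gave 5 each (54.3% and 58.5% of all genes), no filter gave 3 (14.9%) and a block for the replicate number gave 6 (59.7%).

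The ordering of levels changed between the populations in a way that no scaling of the libraries can alter, since it compares genes within a library. In both Itga6hi CD80pos libraries Klk8 ranked 1 and Klk10 ranked 2 among the 10 genes. In both Itga6low CD80neg libraries Klk8, Klk13 and Klk7 ranked 1, 2 and 3, and Klk10 ranked 4 in replicate 1 and 5 in replicate 2. St14 ranked 3 and 4 in the Itga6hi CD80pos libraries and 6 and 8 in the Itga6low CD80neg libraries. Spink5 ranked 4 and 6 in the Itga6hi CD80pos libraries and 8 and 9 in the Itga6low CD80neg libraries. By group means, neighbours in this order often lay within each other's spread. In Itga6hi CD80pos this held for St14 at 63.3 ± 7.10 TPM, Klk13 at 56.5 ± 18.5 TPM and Spink5 at 48.9 ± 21.1 TPM (SD, n = 2 each). In Itga6low CD80neg it held for Klk13 at 33.6 ± 29.7 TPM, Klk7 at 24.6 ± 21.1 TPM, Klk6 at 21.4 ± 18.8 TPM and Klk10 at 18.5 ± 12.5 TPM (SD, n = 2 each). These SDs are between libraries, while the ranks compare genes within a library. Within both Itga6hi CD80pos libraries St14 stood above Spink5, while Klk13 ranked 5 in replicate 1 and 3 in replicate 2. Within both Itga6low CD80neg libraries Klk13 stood above Klk7 and Klk7 above Klk6, while Klk6 and Klk10 changed places. No test of these orders is given.

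The make-up of the kallikrein total showed the same contrast as shares. The sum of the 7 kallikreins was 638 and 593 TPM in Itga6hi CD80pos, against 65.1 and 276 TPM in Itga6low CD80neg. Klk8 and Klk10 together made up 85.1% and 76.2% of it in Itga6hi CD80pos, against 44.2% and 46.7% in Itga6low CD80neg. Klk6, Klk7 and Klk13 together made up 11.8% and 19.8% in Itga6hi CD80pos, against 46.6% and 46.7% in Itga6low CD80neg. Neither share overlapped between populations, and the Itga6low CD80neg replicates agreed closely although their totals differed several-fold. These groupings of kallikreins were chosen after the values were seen, and they carry no test. Without Klk8 and Klk10, the sum of the other kallikreins was 94.7 and 141 TPM in Itga6hi CD80pos and 36.4 and 147 TPM in Itga6low CD80neg, and the populations overlapped.

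**Figure D2:**
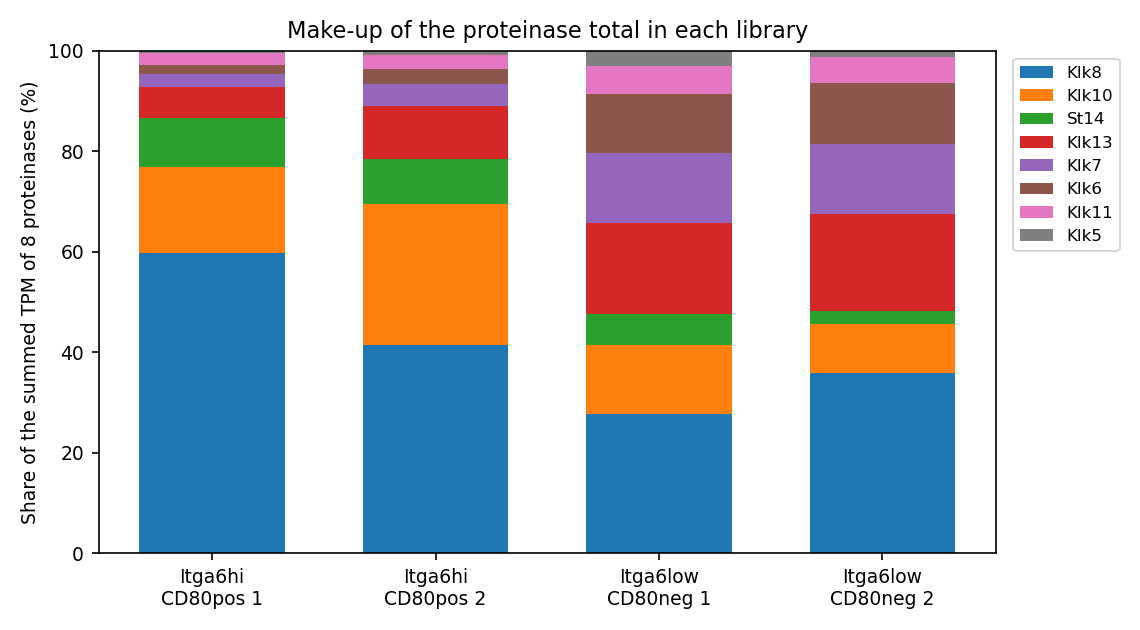
Share of each of the 8 proteinases in their summed TPM, as a stacked bar per library, with Itga6hi CD80pos libraries left and Itga6low CD80neg libraries right. Klk6, Klk7 and Klk13 fill more of the Itga6low CD80neg bars, while Klk8, Klk10 and St14 fill more of the Itga6hi CD80pos bars, although the Klk8 share differed between replicates, at 59.7% and 41.5% in Itga6hi CD80pos and 27.6% and 35.9% in Itga6low CD80neg.

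Proteinases were then set against inhibitors within each library. The 8 proteinases summed to 706 and 651 TPM in Itga6hi CD80pos, against 69.3 and 283 TPM in Itga6low CD80neg. The 2 inhibitors summed to 94.3 and 69.8 TPM in Itga6hi CD80pos, against 5.36 and 15.8 TPM in Itga6low CD80neg. Both sums were higher in Itga6hi CD80pos without overlap, and the inhibitor sum differed by the larger factor. There were 7.49 and 9.33 TPM of proteinase per TPM of inhibitor in Itga6hi CD80pos, against 12.9 and 17.9 in Itga6low CD80neg. As log2, this ratio averaged 3.06 ± 0.22 for Itga6hi CD80pos libraries and 3.93 ± 0.33 for Itga6low CD80neg libraries (SD, n = 2 each), a difference of -0.86. Leaving out any 1 library left this difference between -1.10 and -0.63. No test is given for a score over these genes, since with 2 libraries a group the smallest p of an exact permutation test is 0.333.

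The ratios of single kallikreins to Spink5 restate the levels above against 1 gene, so they split the kallikreins in the same way and add no separate evidence. Klk7, a known target of LEKTI, stood at 0.289 and 0.815 TPM per TPM of Spink5 in Itga6hi CD80pos, against 3.52 and 6.96 in Itga6low CD80neg. Klk5, the other classical target, stood at 0.0470 and 0.168 per TPM of Spink5 in Itga6hi CD80pos, against 0.753 and 0.607 in Itga6low CD80neg. Spink5 thus exceeded Klk5 in all 4 libraries, but exceeded Klk7 in the Itga6hi CD80pos libraries alone. Ratios to Spink5 were lower without overlap in Itga6hi CD80pos for Klk6, Klk11 and Klk13 too, with log2 differences of -3.59, -2.39 and -2.49. For Klk8 and Klk10 the ratio to Spink5 overlapped between populations. Klk8 stood at 6.60 and 7.95 per TPM of Spink5 in Itga6hi CD80pos, against 6.98 and 17.9 in Itga6low CD80neg. The St14 to Spint1 ratio went the other way, at 2.24 and 1.63 in Itga6hi CD80pos, against 1.59 and 0.710 in Itga6low CD80neg, and its nearest values almost touched. It leaves out Spint2, which encodes a relative of HAI-1. Spint2 stood above Spint1 in each library, at 202 and 246 TPM in Itga6hi CD80pos, against 12.5 and 50.4 TPM in Itga6low CD80neg. A ratio with Spint2 included was not computed. These are ratios of RNA, and neither protein nor activity was measured.

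**Figure D3:**
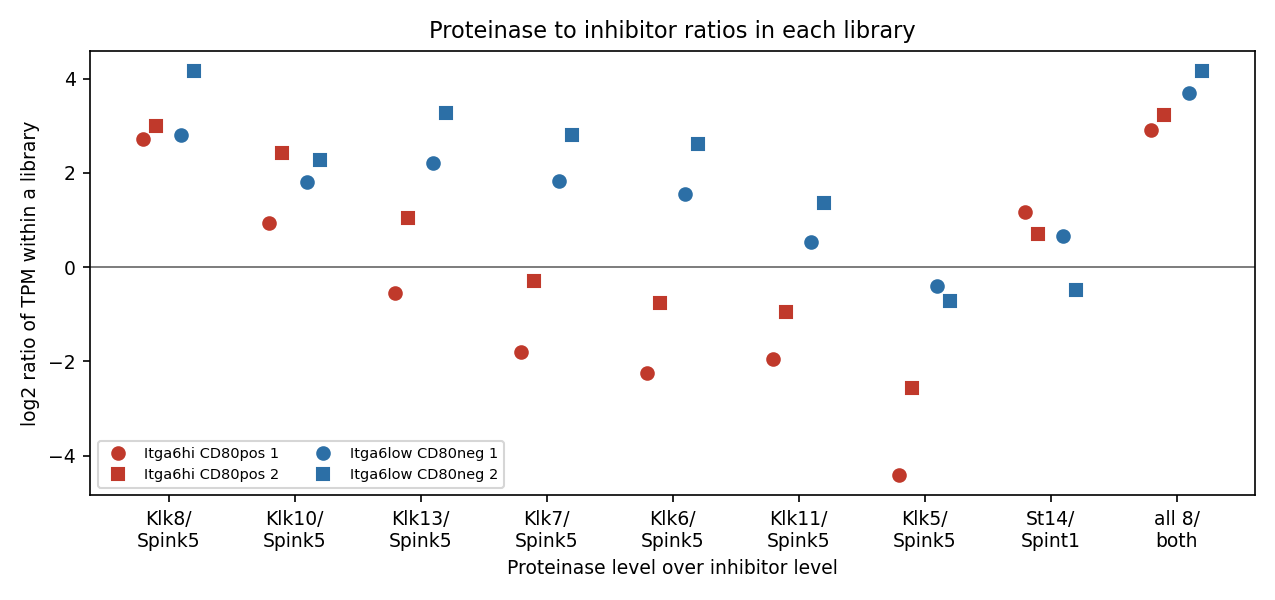
Log2 ratio of proteinase TPM to inhibitor TPM within each library, with Itga6hi CD80pos in red left of Itga6low CD80neg in blue, circles for replicate 1 and squares for replicate 2. For Klk13, Klk7, Klk6, Klk11 and Klk5 both red points lie under both blue points, for Klk8 and Klk10 they overlap, and for St14 over Spint1 the red points lie above.

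The scaling of the libraries bears on each level above, because haemoglobin genes took 0.0185% and 0.00621% of TPM in Itga6hi CD80pos and 70.9% and 50.4% in Itga6low CD80neg, and TPM are shares of a fixed total. Over all genes tested the log2 fold change had a median of 1.27 on deposited TPM, 0.24 with median-of-ratios scaling and 0.08 with haemoglobin genes left out of the total. Counts over all genes turned with it, at 7686 higher and 1277 lower on deposited TPM and 1090 higher and 1767 lower without haemoglobin genes. Without haemoglobin genes, St14, Spink5 and Klk10 stayed called, at log2 fold changes of 2.05, 2.06 and 1.78 (limma adjusted p = 0.0150, 0.0325 and 0.0360), beside 7.48% of all genes called higher. The same 3 genes were the ones called with median-of-ratios scaling (10.2% of all genes higher), with quantile normalization (10.7%) and with mitochondrial, ribosomal protein, haemoglobin and keratin genes left out of the total (12.3%), so their share of the 10 genes lay above the background there. No test of that difference is given. With haemoglobin genes left out, Klk7 and Klk6 stood at -1.15 and -1.37 without a call (limma adjusted p = 0.163 and 0.128), and Klk5, Klk11 and Klk13 also turned below 0 without a call under each of the 4 other scalings. Read against the median of all genes on deposited TPM, 5 of the 10 genes lay above it, the same 5 that were called, and the other 5 lay below.

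**Figure D4:**
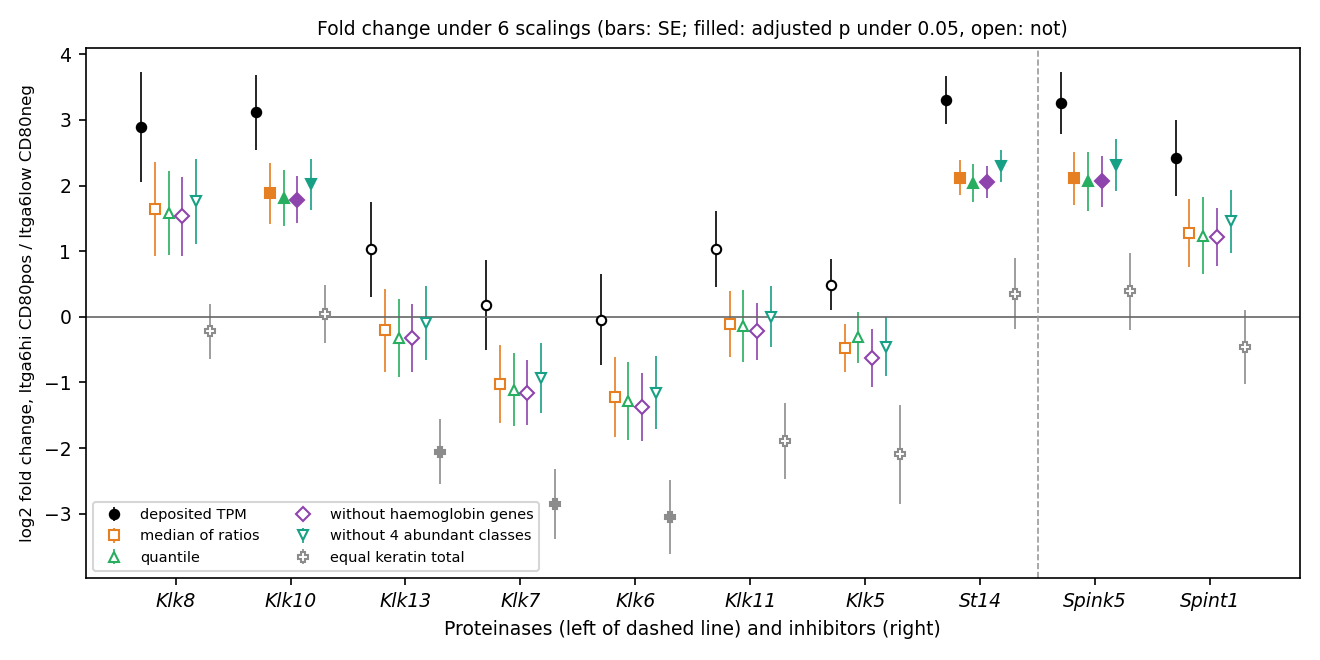
Log2 fold change of each gene, Itga6hi CD80pos over Itga6low CD80neg, with its SE, on deposited TPM and under 5 other scalings of the libraries; filled symbols passed an adjusted p under 0.05. Klk10, St14 and Spink5 are filled under all scalings but the one to an equal keratin total, and Klk13, Klk7, Klk6, Klk11 and Klk5 sit below them under every scaling.

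Keratin genes, whose products fill the cytoskeleton of keratinocytes, took 8.39% and 7.50% of TPM in Itga6hi CD80pos, against 0.517% and 1.53% in Itga6low CD80neg. Within Itga6low CD80neg, each of the 10 genes was higher in TPM in replicate 2, by factors between 1.67 for Klk5 and 5.30 for Klk8, and so was the keratin share. The haemoglobin share went the other way, at 70.9% in replicate 1 and 50.4% in replicate 2, which raises the TPM of all other genes in replicate 2. Its part in each factor was not tested. Fewer cells of a type and less RNA per cell cannot be told apart in such bulk libraries. Per 1000 TPM of keratin genes, Klk10 stood at 1.45 and 2.43 TPM in Itga6hi CD80pos, against 1.86 and 1.79 TPM in Itga6low CD80neg, and overlapped. St14 overlapped too, at 0.814 and 0.777 TPM in Itga6hi CD80pos and 0.804 and 0.473 TPM in Itga6low CD80neg. Klk7 stood at 0.220 and 0.369 TPM per 1000 TPM of keratin in Itga6hi CD80pos, against 1.87 and 2.59 TPM in Itga6low CD80neg, without overlap, and Klk5, Klk6, Klk11, Klk13 and Spint1 were lower per keratin without overlap too. Spint1, called higher on deposited TPM, stood at 0.363 and 0.477 TPM per 1000 TPM of keratin in Itga6hi CD80pos, against 0.507 and 0.665 TPM in Itga6low CD80neg. With libraries scaled to an equal keratin total, a setting chosen after seeing the data, limma called 0 of the 10 genes higher (0 at an unadjusted p under 0.05) and 3 lower, Klk6, Klk7 and Klk13, at log2 fold changes of -3.05, -2.85 and -2.05 (adjusted p = 0.0139, 0.0142 and 0.0273). Over all genes, 0.669% were called higher and 27.1% lower in that setting, whose median log2 fold change was -1.41.

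Markers of keratinocyte layers and of other cells were set beside these values. Over all genes tested, 57.0% were called higher and 9.48% lower. Of 7 basal keratinocyte markers all 7 were called higher, and they summed to 42706 and 43733 TPM in Itga6hi CD80pos, against 1562 and 4323 TPM in Itga6low CD80neg. Of 15 tested spinous and granular markers, the layers in which kallikreins are known to be made, 3 were called higher and 3 lower, and they summed to 8862 and 8579 TPM in Itga6hi CD80pos, against 989 and 3667 TPM in Itga6low CD80neg. Krtdap, Krt10 and Krt1 made up most of this sum in each library. The lower calls, of Lor, Lce1a1 and Lce1c, held under all 5 scalings, and 0 of the higher calls held under every scaling. Lor stood at 1.45 and 4.17 TPM in Itga6hi CD80pos, against 44.7 and 56.1 TPM in Itga6low CD80neg. Lce1c was listed at 0 in both Itga6hi CD80pos libraries, against 5.71 and 11.1 TPM in Itga6low CD80neg. Krt2 was near 0 throughout, at 0.0468 and 0.0244 TPM in Itga6hi CD80pos and listed at 0 in both Itga6low CD80neg libraries. Fibroblast markers were called lower in 13 of 14, summing to 104 and 148 TPM in Itga6hi CD80pos, against 11062 and 7925 TPM in Itga6low CD80neg. Red blood cell markers were called lower in 7 of 7, with sums of 185 and 62.5 TPM in Itga6hi CD80pos and 711095 and 504900.0 TPM in Itga6low CD80neg. The part of these cells in the differences of the kallikreins and inhibitors was not tested.

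The 7 kallikreins lie in 1 cluster on mouse chromosome 7, all on the plus strand, and 37 genes and pseudogenes of the family in the table were placed there in GENCODE M21 on GRCm38. Klk13 (43712567 to 43727534) comes first of the 7 and Klk5 (43841971 to 43851181) last, with Klk12 and Klk9 between them. St14 lies on chromosome 9 (31089402 to 31131853, minus strand), Spint1 on chromosome 2 (119237362 to 119249527, plus strand) and Spink5 on chromosome 18 (43963235 to 44022501, plus strand). Listed levels stopped at an edge. After Klk5, the next gene Klk4 and every further family member were listed at 0 in all 4 libraries, with the exception of the pseudogene Klk2-ps at 0.0303 TPM and of Klk1 at 0.0678 TPM, both in Itga6hi CD80pos replicate 1. In all, 25 of the 37 were listed at 0 throughout, including all Klk1b genes, the glandular kallikreins of mouse, whose near-identical sequences would make a value uncertain. Inside the expressed stretch, level did not follow position. Klk9, between Klk10 and Klk8, stood at 2.83 and 4.78 TPM in Itga6hi CD80pos, against 2.80 and 5.89 TPM in Itga6low CD80neg, a log2 fold change of -0.12 ± 0.42 (SE, limma adjusted p = 0.811). Klk10, Klk9 and Klk8 together span 22.8 kb, so a gene with overlapping populations sits between the 2 kallikreins that were called. Klk12 reached at most 2.12 TPM and Klk14 at most 0.847 TPM in any library, and of the family outside the 7 only Klk9 and Klk12 passed the filter, neither of them called.

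**Figure D5:**
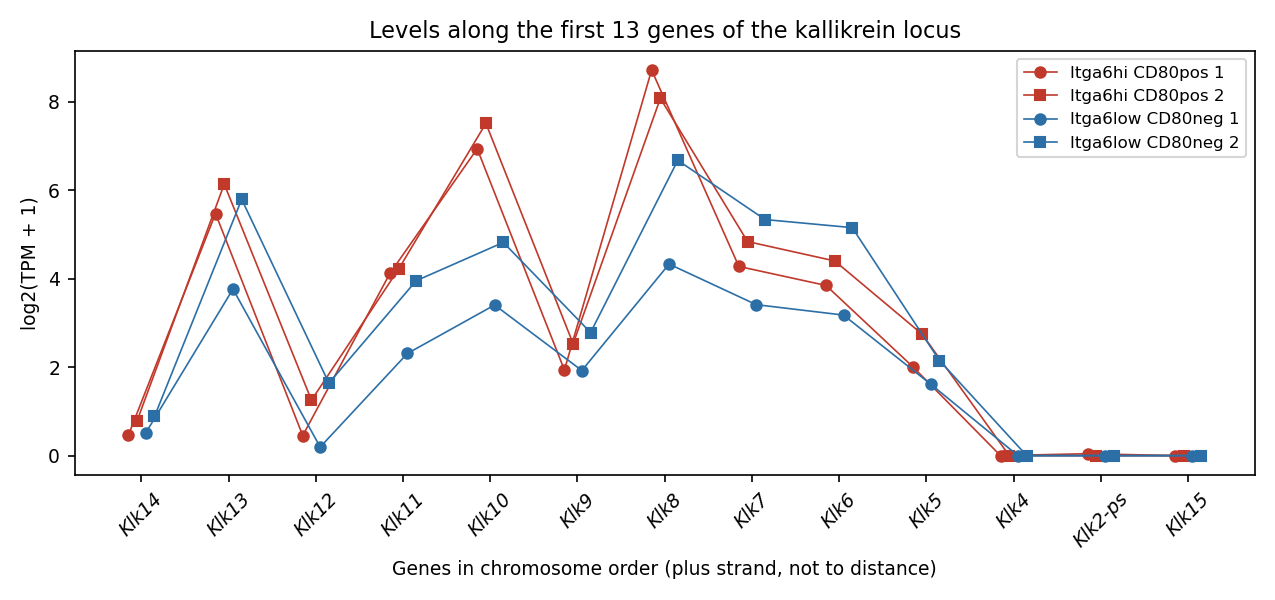
Level as log2(TPM + 1) in each library for the first 13 family members in chromosome order, Itga6hi CD80pos in red and Itga6low CD80neg in blue, circles for replicate 1 and squares for replicate 2. The red and blue lines part at Klk10 and Klk8 and meet at Klk9 between them, and all 4 lines lie at or near 0 from Klk4 on.

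Other serine proteinases of epithelia included genes that rose and genes that fell. Of 12 tested members of the list, 6 were called higher and 2 lower, beside 57.0% higher and 9.48% lower over all genes, and the median log2 fold change was 0.95 beside 1.27 over all genes. Prss8, prostasin, which acts with matriptase, stood at 8.79 and 4.70 TPM in Itga6hi CD80pos, against 0.693 and 1.58 TPM in Itga6low CD80neg (log2 fold change 1.84, limma adjusted p = 0.0136). Prss22, a secreted tryptase, averaged 13.7 ± 4.24 TPM in Itga6hi CD80pos and 0.684 ± 0.398 TPM in Itga6low CD80neg (SD, n = 2 each). Tmprss13, a membrane-anchored proteinase of epidermis, averaged 18.2 ± 3.20 TPM in Itga6hi CD80pos and 3.26 ± 1.93 TPM in Itga6low CD80neg (SD, n = 2 each), and both genes were called higher. Corin, best known for activating a heart peptide, was called lower, at 0.0139 ± 0.00435 TPM in Itga6hi CD80pos and 4.45 ± 0.665 TPM in Itga6low CD80neg (SD, n = 2 each). So was Prss23, at 23.3 ± 6.41 TPM in Itga6hi CD80pos and 79.0 ± 40.6 TPM in Itga6low CD80neg (SD, n = 2 each). Prss22, Corin and Prss23 held their calls under all 5 scalings, while those of Prss8 and Tmprss13 were lost under the 4 others. Tmprss4, the most abundant member without a call, stood at 81.9 and 63.2 TPM in Itga6hi CD80pos, against 12.8 and 49.2 TPM in Itga6low CD80neg (limma adjusted p = 0.0975). Tmprss11g and Prss53 overlapped between populations, with log2 fold changes of -0.17 and 0.24.

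Other proteinase inhibitors of epidermis went both ways, with 5 called higher, 2 lower and 10 not called among 17 tested, beside 57.0% higher and 9.48% lower over all genes. Their median log2 fold change was 1.11, beside 1.27 over all genes. Spint2, the relative of HAI-1 known as HAI-2, stood at 202 and 246 TPM in Itga6hi CD80pos, against 12.5 and 50.4 TPM in Itga6low CD80neg (log2 fold change 3.08, limma adjusted p = 0.0143), a level several times that of Spint1 in each library. Its call held under 2 of 5 scalings. Serpinb5, maspin, is listed here by its serpin family, and whether it inhibits a proteinase was not examined. It averaged 315 ± 21.2 TPM in Itga6hi CD80pos and 58.9 ± 54.5 TPM in Itga6low CD80neg (SD, n = 2 each). Wfdc2, a whey acidic protein of epithelia, averaged 8.37 ± 1.87 TPM in Itga6hi CD80pos and 0.259 ± 0.366 TPM in Itga6low CD80neg (SD, n = 2 each), and both were called higher. The Serpinb5 call was made on deposited TPM alone (adjusted p up to 0.149 under the 4 other scalings). Serpina3n, an inhibitor of the acute phase, was called lower, at 0.222 and 0.363 TPM in Itga6hi CD80pos, against 229.8 and 90.1 TPM in Itga6low CD80neg, and so was Wfdc12, at 0.783 and 1.13 TPM in Itga6hi CD80pos, against 10.4 and 18.4 TPM in Itga6low CD80neg. Both lower calls held under all 5 scalings. Cst3, Cst6 and Serpinb6a, the most abundant without a call, had log2 fold changes of 0.59, 1.47 and 0.56 (limma adjusted p = 0.400, 0.0649 and 0.300), and reads shared within the Serpinb6 family were not resolved.

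Among substrates and receptors of these enzymes, 14 of 29 tested were called higher and 3 lower, near the 57.0% higher and 9.48% lower over all genes. The median log2 fold change was 1.05, beside 1.27 over all genes. Cdcp1, a surface protein that matriptase cleaves, stood at 61.6 and 70.1 TPM in Itga6hi CD80pos, against 1.24 and 1.87 TPM in Itga6low CD80neg, a log2 fold change of 4.72 ± 0.31 (SE, limma adjusted p = 0.00195) that ranked number 23 of all genes tested. Dsg3, a desmosomal cadherin, averaged 134 ± 14.9 TPM in Itga6hi CD80pos and 6.24 ± 3.92 TPM in Itga6low CD80neg (SD, n = 2 each) and was called higher. Both calls held under all 5 scalings. Tslp, a cytokine that KLK5 induces in keratinocytes through the receptor PAR2, was called higher at 11.1 and 78.9 TPM in Itga6hi CD80pos, against 0.947 and 0.625 TPM in Itga6low CD80neg, with a wide gap between the Itga6hi CD80pos replicates and a call held on deposited TPM alone. F2r, which encodes the thrombin receptor PAR1, and Il1b were called lower, F2r at 0.840 and 0.638 TPM in Itga6hi CD80pos, against 41.0 and 35.6 TPM in Itga6low CD80neg, beside fibroblast markers that were lower as well. Dsg1a, a desmosomal cadherin cut by kallikreins, stood at 24.7 and 28.6 TPM in Itga6hi CD80pos, against 6.85 and 21.5 TPM in Itga6low CD80neg, without a call (limma adjusted p = 0.139), and reads shared with its near-identical neighbours were not resolved. Flg, the filaggrin precursor, overlapped widely, at 4.48 and 36.9 TPM in Itga6hi CD80pos and 28.1 and 9.57 TPM in Itga6low CD80neg.

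Of 9 genes that process filaggrin or the cornified envelope, 4 were called higher and 0 lower by limma (4 and 1 at an unadjusted p under 0.05), beside 57.0% higher and 9.48% lower over all genes. The median log2 fold change was 1.86, beside 1.27 over all genes. Capn1, a calcium-dependent proteinase, averaged 136 ± 4.04 TPM in Itga6hi CD80pos and 24.8 ± 1.83 TPM in Itga6low CD80neg (SD, n = 2 each). Furin, a convertase of precursor proteins, averaged 65.5 ± 5.87 TPM in Itga6hi CD80pos and 14.9 ± 1.98 TPM in Itga6low CD80neg (SD, n = 2 each). Ctsd, a lysosomal proteinase, stood at 749 and 717 TPM in Itga6hi CD80pos, against 116 and 203 TPM in Itga6low CD80neg, and the transglutaminase Tgm3 at 131 and 43.8 TPM in Itga6hi CD80pos, against 19.2 and 17.0 TPM in Itga6low CD80neg. All 4 lost the call under at least 1 other scaling. On deposited TPM, Asprv1, which cuts profilaggrin, lay lower without a call, at 13.9 and 20.2 TPM in Itga6hi CD80pos, against 28.0 and 67.5 TPM in Itga6low CD80neg (limma adjusted p = 0.0643). Ctsl did so too (limma adjusted p = 0.0723). Both were called lower under each of the 4 other scalings (limma adjusted p down to 0.0149 for Asprv1 and 0.0295 for Ctsl). Blmh lay higher without a call (limma adjusted p = 0.0724).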

How the data were processed

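The labels list 6 samples in 3 groups, and the table analysed has columns for 4 of them, each matched to a sample by its library name. RNA came from a Zymo microprep kit, and NEBNext low-input reagents were used for the libraries, per the labels' protocols. The deposited values are TPM per gene, made by the authors with kallisto 0.44.0 and the genome build mm10 named in the submitters' processing notes; the annotation and the summing to genes are not given in the sources used here. Each column sums to 1000000, so depth is unknown and no count-based interval is given.

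Values were transformed to log2(TPM + 1). Limma 3.58.1 (R 4.3.3, lmFit and eBayes with a trend) compared the groups, two-sided, adjusted over 13474 genes. The procedure was run on simulated data with as many genes raised as lowered. That simulation held no shift in the make-up of the libraries, so it does not bear on the haemoglobin share here. The genes, lists and tests were chosen with earlier results of these data known. Pathway genes were named by a rule: from each list up to 5 called genes by absolute log2 fold change and up to 3 uncalled by mean TPM; 1 gene so named is not reported here. Klk1, Klk2-ps, Klk12, Klk14, Krt1, Krt2, Krt10, Krtdap, Lor, Lce1a1, Lce1c and 2310002F09Rik were named after their values were seen. Il36a and Il36g were matched through RefSeq synonyms, and Sasp and Ctsv matched no gene. Median-of-ratios size factors rested on 16860 genes. The scaling to an equal keratin total was chosen after seeing the data.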

Additional observations from a re-analysis of the deposited data

How the results depend on the processing

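Pseudocounts of 0.1 and 5 left 5 of the 10 genes called higher and 0 lower. A mean of at least 5 TPM left 9 of the 10 genes to test, of which 5 were called higher and 0 lower. The count of 5 became 3 with no filter, under median-of-ratios scaling, under quantile normalization, without haemoglobin genes and without mitochondrial, ribosomal protein, haemoglobin and keratin genes, and 0 higher and 3 lower with an equal keratin total. Over all genes, 7686 higher and 1277 lower became 4564 higher and 852 lower of 30663 with no filter. At a mean of at least 5 TPM the counts were 6117 higher and 613 lower of 8821. They were 1372 higher (1610 lower) under median-of-ratios scaling, 1448 (1517) under quantile normalization, 1090 (1767) without haemoglobin genes, 1845 (1872) without the 4 abundant classes, and 90 and 3643 with an equal keratin total. Over the 4 pathway lists, 29 higher and 7 lower became 13 higher with no filter, 8 and 12 under median-of-ratios scaling, 8 and 12 under quantile normalization, 6 and 13 without haemoglobin genes, 11 and 13 without the 4 classes and 1 and 30 with an equal keratin total. The proteinase to inhibitor difference of -0.86 became -1.34 as a mean of log2(TPM + 1) and -0.94 without St14. Leaving out 1 library, which leaves the spread to the other population, gave 0 to 7 of the 10 genes higher, 0 to 8227 genes higher and 0 to 1237 lower over all, 0 to 35 and 0 to 9 in the pathway lists, and -1.10 to -0.63 for the proteinase to inhibitor difference.

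Log2 fold changes turned in sign for genes without a call. Under median-of-ratios scaling these were Klk5 (-0.47), Klk7 (-1.02), Klk11 (-0.11), Klk13 (-0.21), Cst3 (-0.68), Dsg1a (-0.14), Prss53 (-0.77) and Serpinb6a (-0.70). Under quantile normalization they were Klk5 (-0.31), Klk7 (-1.11), Klk11 (-0.14), Klk13 (-0.32), Cst3 (-0.67), Dsg1a (-0.23), Prss53 (-0.64) and Serpinb6a (-0.75). Without haemoglobin genes they were Klk5 (-0.63), Klk7 (-1.15), Klk11 (-0.22), Klk13 (-0.32), Cst3 (-0.80), Dsg1a (-0.26), Prss53 (-0.93) and Serpinb6a (-0.83). Without the 4 abundant classes they were Klk5 (-0.45), Klk7 (-0.94), Klk11 (-0.00045), Klk13 (-0.095), Cst3 (-0.57), Dsg1a (-0.033), Prss53 (-0.75) and Serpinb6a (-0.59). With an equal keratin total, turns are listed for the 10 genes alone. Pathway genes moved there as well, and their counts are given above. Of the 10 genes, Klk5 (-2.09), Klk7 (-2.85), Klk8 (-0.22), Klk11 (-1.89), Klk13 (-2.05) and Spint1 (-0.46) turned, of which Klk8 and Spint1 had been called higher and Klk7 and Klk13 became called lower. With 1 library left out, Klk6 ranged from -1.03 to 0.95, Klk7 from -0.78 to 1.15, Flg from -1.68 to 1.11, Prss53 from -0.61 to 1.09 and Tmprss11g from -1.45 to 1.12. The cause of these turns was not tested.

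The labels give both groups replicate numbers 1 and 2 without saying that a number marks a shared animal or day, and deviations of same-numbered libraries correlated at 0.109 across genes. With the number as a replicate block, 6 of the 10 genes were called higher, Klk11 being added, beside 8044 higher and 1452 lower over all genes and 33 and 10 in the pathway lists. That fit left 1 residual degree of freedom. Limma there used the spread common to genes of like level in place of each gene's own, so the added call does not rest on the spread of Klk11. With 2 libraries a group and no record of depth, differences of the size seen for Klk5, Klk11 and Klk13 were not separated from the spread between replicates.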
